A study of Homo sapiens and Mus musculus with 24 samples.

Results

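The 10 genes described here encode proteins that carry amino acids across the plasma membrane: SLC7A1, SLC7A2, SLC7A5, SLC7A6, SLC7A7, SLC7A8, SLC7A11, SLC3A2, SLC38A2 and SLC1A5. They were taken by symbol from the 56981 gene symbols of the 12 MCF10A tables, and each symbol had 1 gene identifier. All 10 passed the filter on low counts that left 21079 genes for testing. SLC7A2 was also followed transcript by transcript.

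MCF10A is a non-tumorigenic line of human breast epithelial cells. The 4 groups of 3 libraries were knock-in cells given 1 µM BYL719 for 4 h, knock-in cells given DMSO for 4 h, parental cells given 1 µM BYL719 for 4 h, and parental cells given DMSO for 4 h. Knock-in cells were heterozygous for PIK3CA H1047R, which makes the kinase PI3Kα overactive, and parental cells were labelled wild type. BYL719, or alpelisib, inhibits PI3Kα, and DMSO is its solvent. There was 1 line of each genotype, bought as an isogenic pair, so the mutation and other differences between the lines cannot be told apart. The labels do not say whether replicates were separate cultures, so p-values measure the spread between these libraries.

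Each library held 120177015 to 162755457 estimated read pairs. The 10 epithelial and basal mammary markers were all at 1 TPM (transcripts per 1000000, scaled by length) or more in every group, with summed levels of 5561 to 6450 TPM over the libraries. Of 8 macrophage markers 3 were at 1 TPM or more (CD68, CD14 and CSF1R), the list summed to 20.7 to 27.1 TPM, and PTPRC was at most 0.0236 TPM. Of 6 fibroblast markers only COL1A1 reached 1 TPM, and the 5 endothelial markers summed to at most 0.808 TPM. In bulk RNA, fewer cells of a type and less RNA per cell cannot be told apart. PIK3CA mRNA, whose level is no check of a point mutation, lay at 69.3 to 72.2 CPM (read pairs per 1000000 of the library) in knock-in BYL719, 33.4 to 44.3 CPM in knock-in DMSO, 66.7 to 72.1 CPM in parental BYL719 and 55.9 to 59.2 CPM in parental DMSO libraries.

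The second knock-in DMSO library stood apart from all others. Its genes with transcripts under 1500 nt exceeded the other 2 libraries of its group by a median 0.22 on the log2 scale, and its genes over 5000 nt were at -0.46 (2783 and 1005 genes at 10 CPM or more). The same gap between short and long genes was 0.67 in that library and at most 0.07 in size in the 9 libraries of the other groups. It was -0.39 and -0.29 in the other 2 of its group, whose reference includes that library. Against the other 2 libraries of the group, that library was at -0.55 for SLC7A1, -0.52 for SLC7A2, -0.56 for SLC7A6 and 0.25 for SLC3A2. Called differences of the members that use knock-in DMSO cells, and the counts of related gene lists, are also given without it. Counts corrected for effective transcript length served as an alternative, and the part of transcript length in the results was otherwise not tested.

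Amino acids enter cells through several kinds of carrier. SLC7A1 and SLC7A2 (CAT1 and CAT2) bring in the cationic amino acids arginine, lysine and ornithine. SLC7A5, SLC7A6, SLC7A7, SLC7A8 and SLC7A11 are light chains that reach the surface as dimers with the glycoprotein heavy chain SLC3A2, also called CD98 or 4F2hc. SLC38A2 (SNAT2) and SLC1A5 (ASCT2) carry small neutral amino acids and glutamine on the sodium gradient. In epithelial cells, leucine brought in by SLC7A5 feeds mTORC1, a kinase downstream of PI3K, and cystine brought in by SLC7A11 feeds glutathione synthesis.

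By RefSeq gene positions (GRCh38.p14), SLC7A5 (ENSG00000103257, 87830023 to 87869507) and SLC7A6 (ENSG00000103064, 68264526 to 68301819) are on chromosome 16. SLC7A7 (ENSG00000155465, 22773222 to 22819791) and SLC7A8 (ENSG00000092068, 23125295 to 23183660) are on chromosome 14. SLC7A1 (ENSG00000139514) is on chromosome 13 at 29509414 to 29595688. SLC7A11 (ENSG00000151012) is on chromosome 4 at 138164097 to 138242349, and its partner SLC3A2 (ENSG00000168003) on chromosome 11 at 62856109 to 62888860. SLC38A2 (ENSG00000134294) is on chromosome 12 at 46358188 to 46372773, and SLC1A5 (ENSG00000105281) on chromosome 19 at 46774883 to 46788594.

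Promoter sequences are shown for the genes whose starts or changes recur in the results. They come from RefSeq (GRCh38.p14), which gave 17 windows for 8 of the members; those of SLC7A2 and SLC7A11 were not used here. Each window ran from 250 bases before an annotated start to 50 bases after it, and the 250 bases before the start are printed 5′ to 3′ on the gene's strand, with matches to a searched motif in capitals. All 4 windows lie on the minus strand. The first sequence precedes the distal start of SLC7A8 (chr14:23183661-23183910) and the second its internal start (chr14:23154394-23154643). Both are shown since the lines differed in the estimated share of pairs assigned to transcripts of these starts. The third is that of SLC7A5 (chr16:87869508-87869757), the member of highest level, and the last that of SLC38A2 (chr12:46372774-46373023), which rose with BYL719 in both lines.
SLC7A8 distal start: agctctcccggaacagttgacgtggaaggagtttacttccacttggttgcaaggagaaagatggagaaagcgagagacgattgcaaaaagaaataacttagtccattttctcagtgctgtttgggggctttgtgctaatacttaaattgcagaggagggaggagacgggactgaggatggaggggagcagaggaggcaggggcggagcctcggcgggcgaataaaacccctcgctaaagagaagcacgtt
SLC7A8 internal start: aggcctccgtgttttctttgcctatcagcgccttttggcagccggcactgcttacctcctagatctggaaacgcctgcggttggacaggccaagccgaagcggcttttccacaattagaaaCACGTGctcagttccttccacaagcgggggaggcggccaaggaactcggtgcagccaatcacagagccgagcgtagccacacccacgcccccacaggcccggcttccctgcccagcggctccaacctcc
SLC7A5: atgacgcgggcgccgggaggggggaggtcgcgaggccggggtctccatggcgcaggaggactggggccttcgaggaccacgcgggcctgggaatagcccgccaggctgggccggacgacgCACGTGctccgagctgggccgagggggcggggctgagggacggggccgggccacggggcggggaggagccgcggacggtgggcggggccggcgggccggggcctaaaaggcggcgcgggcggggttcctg
SLC38A2: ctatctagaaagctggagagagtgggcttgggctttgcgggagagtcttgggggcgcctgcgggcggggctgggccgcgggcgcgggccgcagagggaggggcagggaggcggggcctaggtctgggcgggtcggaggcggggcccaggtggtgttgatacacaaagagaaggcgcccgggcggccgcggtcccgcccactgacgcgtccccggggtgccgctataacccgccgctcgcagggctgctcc

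A set of 4 motifs was searched on both strands of the windows, and no matches in the members' windows overlapped each other. CACGTG, the E-box of MYC and related factors, was in 7.26% of all 35116 windows and is the match in capitals in the internal SLC7A8 and the SLC7A5 sequences. GTAAACA, a FOXO-type site, was in 3.42% of all windows, TGATGNAA, a C/EBP-ATF composite site, in 3.62%, and TGACNNNGC, the core of the antioxidant response element, in 13.3%. In the window nearest the start of each gene's most counted transcript, these letters were found in 1 of 8 members for CACGTG (SLC7A5), 0 of 8 for GTAAACA, 1 of 8 for TGATGNAA (SLC7A1) and 4 of 8 for TGACNNNGC (SLC7A1, SLC7A5, SLC7A6 and SLC7A7). The SLC7A5 match to TGACNNNGC ran over the start, so it is not among the printed bases. A match describes letters only.

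Per length of transcript, SLC7A5 was the most abundant of the 10 mRNAs in all 4 groups. Its level averaged 402 ± 10.7 TPM in knock-in BYL719, 460 ± 65.0 TPM in knock-in DMSO, 614 ± 30.9 TPM in parental BYL719 and 702 ± 18.3 TPM in parental DMSO cells (SD, n = 3 each). SLC3A2 came next, at 284, 353, 357 and 380 TPM in the same order of groups. In 3 groups SLC38A2 followed and then SLC1A5, with no overlap between their libraries. In knock-in DMSO cells these neighbours overlapped, at 98.6 ± 23.7 TPM for SLC38A2 and 109 ± 2.53 TPM for SLC1A5. SLC7A7 was lowest everywhere, at 0.172 to 0.288 TPM. In parental cells SLC7A1, SLC7A6, SLC7A11, SLC7A2 and SLC7A8 followed each other without overlap between neighbours. In knock-in DMSO cells SLC7A11, SLC7A6 and SLC7A1 overlapped at 26.3, 25.6 and 25.2 TPM. In knock-in BYL719 cells SLC7A11 led these 5, and SLC7A6, SLC7A2 and SLC7A1 overlapped each other at 28.0, 27.3 and 25.7 TPM.

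**Figure D1:**
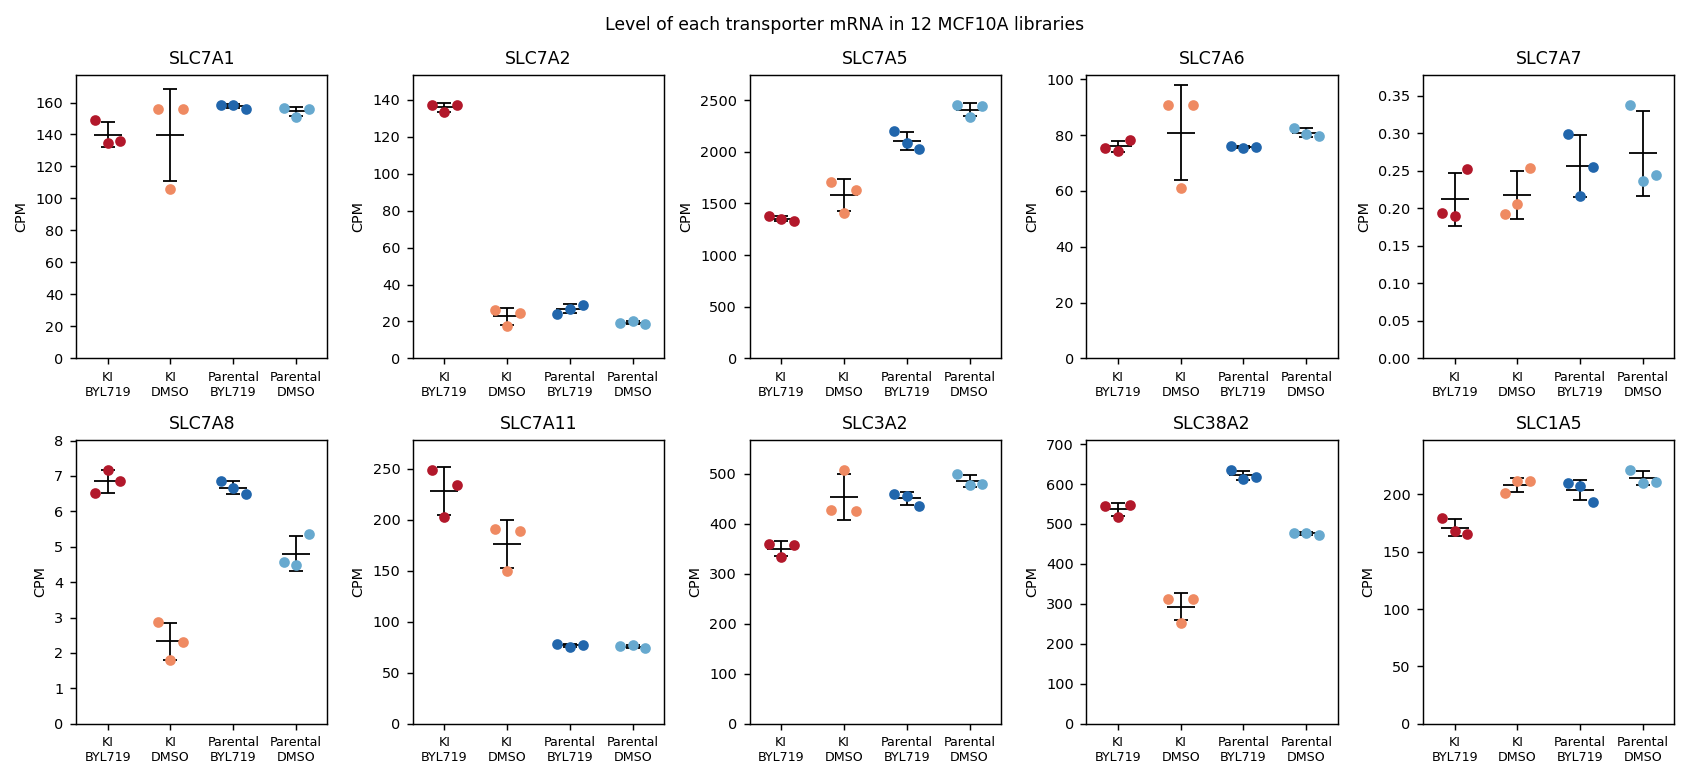
Levels of the 10 mRNAs (vertical axes, CPM of the library total, each from 0) in the 3 libraries of each group (points), with the mean and SD (bars). SLC7A2 lies at 133 to 137 CPM in knock-in BYL719 libraries and at 29.2 CPM or less in the other 9, and 1 knock-in DMSO library is low for SLC7A1 and SLC7A6.

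Differences were tested gene by gene with edgeR's quasi-likelihood test over all 21079 genes, and a gene is called where its p-value, adjusted by the Benjamini-Hochberg method, is below 0.05. Between knock-in and parental cells in DMSO, 4 of the 10 members were called, 1 higher and 3 lower in knock-in cells, beside 34.2% of all genes. Under BYL719, 5 members differed between knock-in and parental cells, 2 higher and 3 lower, beside 22.3% of all genes. With BYL719 against DMSO, 7 members changed in knock-in cells, 4 up and 3 down, beside 28.3% of all genes, and 1 rose in parental cells, where 1.43% of all genes were called and 0.844% rose. The BYL719 effect itself differed between the lines for 3 members, larger in knock-in cells for each, where 2.87% of all genes were called and 2.08% in that direction. The 4 of 10 between the lines in DMSO is near its background. The members were chosen with earlier results of these data known, so their counts beside all genes are descriptive. The median member difference was -0.10, -0.17, -0.02, -0.03 and 0.03 on the log2 scale in these 5 comparisons, and that of all genes 0.00, 0.01, 0.02, 0.01 and 0.01. Without the second knock-in DMSO library, 7, 7, 9, 5 and 4 members were called, beside 38.9, 34.6, 32.4, 9.17 and 8.71% of all genes.

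**Figure D2:**
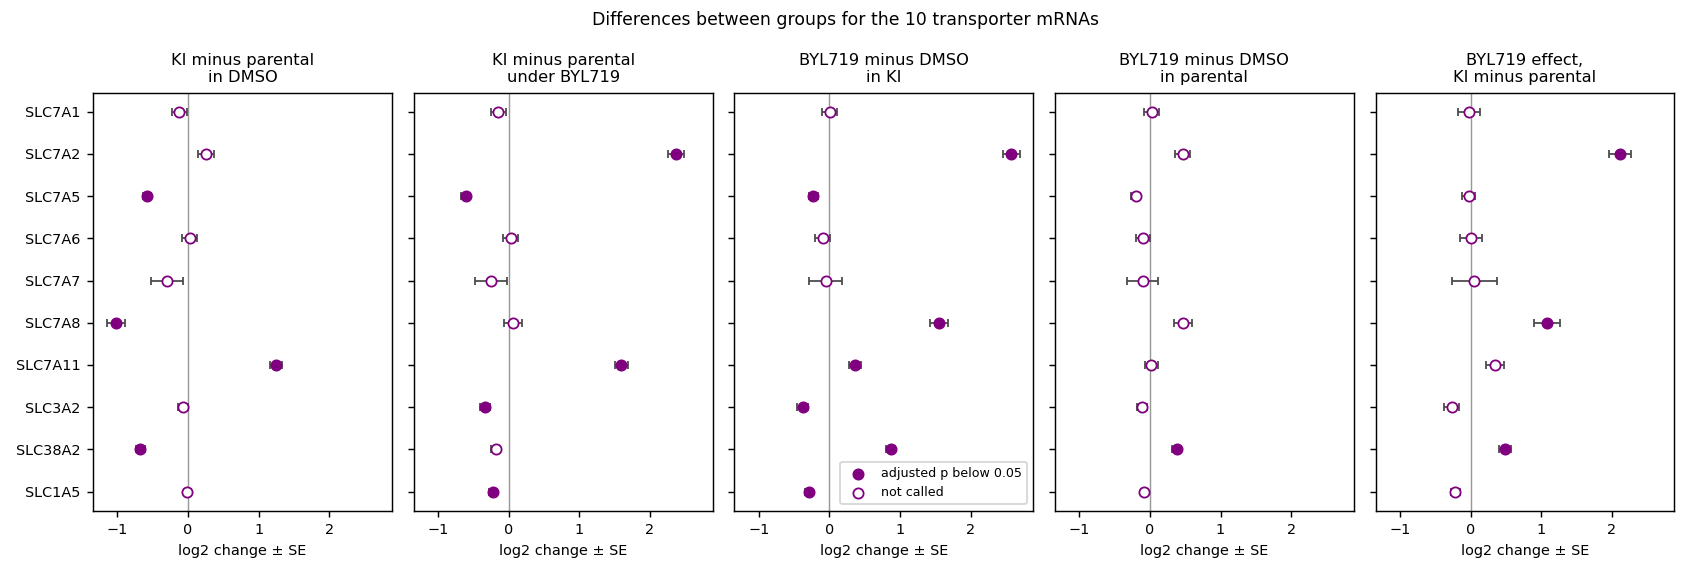
Log2 difference with its SE (horizontal axes) of each member in 5 comparisons, filled where the adjusted p is below 0.05. SLC7A2 stands at 2.37 to 2.58 in the 2 comparisons of knock-in BYL719 cells with another group. For BYL719, 7 of 10 points are filled in knock-in cells, beside 28.3% of all genes, and 1 of 10 in parental cells, beside 1.43%. For the difference in BYL719 effect 3 of 10 are filled, beside 2.87% of all genes.

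SLC7A2, the inducible cationic carrier, showed the largest difference of any member. It read 137, 133 and 137 CPM in knock-in BYL719 libraries and 26.0, 17.4 and 24.8 CPM in knock-in DMSO libraries. It read 24.2, 27.0 and 29.2 CPM in parental BYL719 libraries and 19.3, 20.2 and 18.7 CPM in parental DMSO libraries. The 3 knock-in BYL719 libraries were far above all 9 others, and the knock-in and parental DMSO libraries overlapped. BYL719 raised SLC7A2 5.97-fold in knock-in cells (log2 2.58, SE 0.12, adjusted p = 3.69e-08). Without the second knock-in DMSO library the log2 change was 2.41.

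In parental cells the log2 difference between BYL719 and DMSO was 0.46 (SE 0.11, adjusted p = 0.0711). The BYL719 and DMSO libraries did not overlap there, and the gene was called under 4 of 18 alternative settings, among them without the second knock-in DMSO library (adjusted p = 0.000303). The BYL719 effect on SLC7A2 was larger in knock-in than in parental cells by 2.12 on the log2 scale (SE 0.16, adjusted p = 3.95e-05), or by 1.96 without that library. Under BYL719, knock-in cells held 5.17 times the level of parental cells (log2 2.37, adjusted p = 1.97e-08). In DMSO the log2 difference between knock-in and parental cells was 0.25 (adjusted p = 0.104), and without the second knock-in DMSO library it was 0.40 (adjusted p = 0.000207).

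SLC7A1, the constitutive cationic carrier, was not called in any of the 5 comparisons. It read 149, 134 and 136 CPM in knock-in BYL719 libraries and 156, 106 and 156 CPM in knock-in DMSO libraries. In parental libraries it lay at 156 to 158 CPM with BYL719 and at 151 to 156 CPM with DMSO. Its log2 difference between BYL719 and DMSO in knock-in cells was 0.00 (SE 0.11), and without the second knock-in DMSO library it fell by 0.16 (adjusted p = 0.00804). Under BYL719 the log2 difference between knock-in and parental cells was -0.15 (adjusted p = 0.407), with no overlap of the libraries, and without that DMSO library the adjusted p was 0.00538.

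The balance of the cationic pair followed SLC7A2. SLC7A2 made up 51.5 ± 0.782% of the summed TPM of SLC7A1 and SLC7A2 in knock-in BYL719 cells and 14.4 ± 0.609% in knock-in DMSO cells. It made up 15.3 ± 1.13% in parental BYL719 cells and 11.8 ± 0.578% in parental DMSO cells (SD, n = 3 each). Per length, SLC7A2 stood at the level of SLC7A1 in knock-in BYL719 cells alone among the 4 groups. The second knock-in DMSO library gave 13.8%, below the other 2 of its group at 15.0% and 14.6%.

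**Figure D3:**
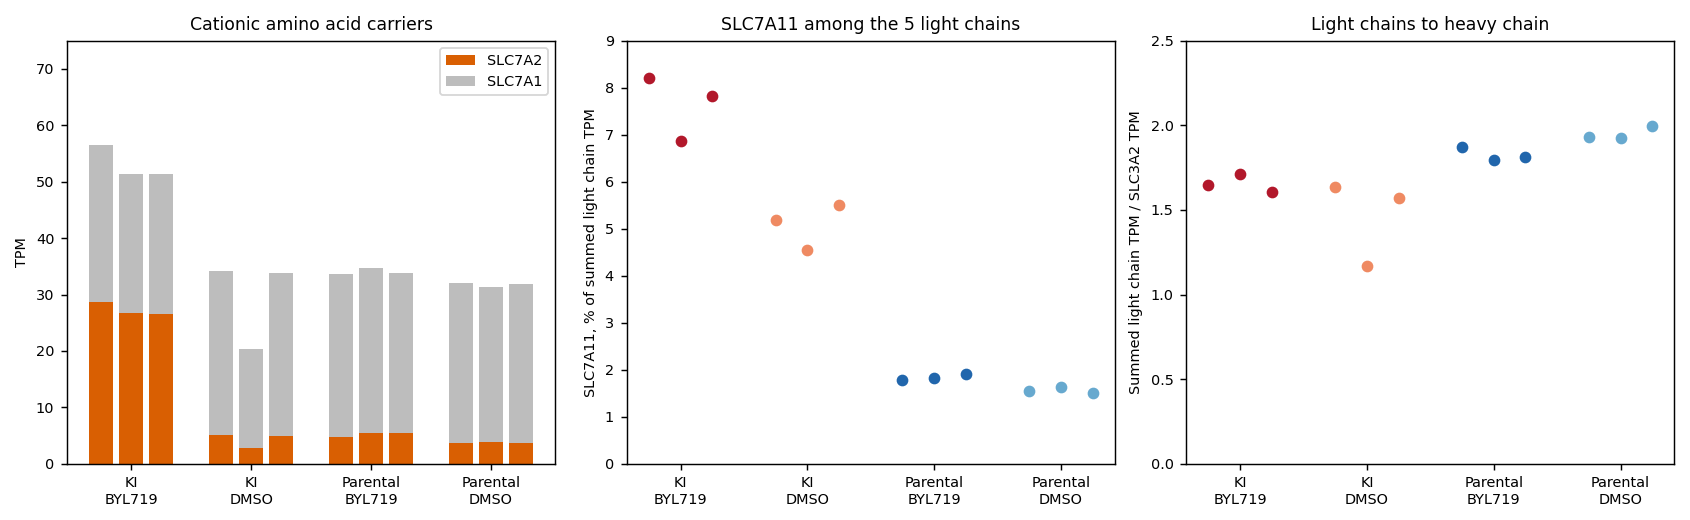
Left, TPM of SLC7A2 and SLC7A1 stacked per library (bars, 3 per group); middle, SLC7A11 as a percentage of the summed TPM of the 5 light chains per library; right, the ratio of that sum to SLC3A2 TPM per library. SLC7A2 fills about as much of the bar as SLC7A1 in knock-in BYL719 libraries, and SLC7A11 is at 4.54 to 8.21% of light chains in knock-in and at 1.51 to 1.91% in parental libraries.

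Among the light chains, SLC7A11, the cystine-glutamate exchanger xCT, was higher in knock-in cells under both treatments. It read 249, 202 and 234 CPM in knock-in BYL719 libraries and 191, 150 and 189 CPM in knock-in DMSO libraries. Parental libraries lay at 75.4 to 78.1 CPM with BYL719 and at 73.8 to 77.1 CPM with DMSO. Every knock-in library was above every parental one. The difference between knock-in and parental cells was 3.02-fold under BYL719 (log2 1.59, SE 0.09, adjusted p = 5.32e-08) and 2.38-fold in DMSO (log2 1.25, SE 0.09, adjusted p = 3.83e-07). In DMSO the log2 difference was 1.34 without the second knock-in DMSO library.

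BYL719 raised SLC7A11 in knock-in cells by 0.37 on the log2 scale (adjusted p = 0.00705), and by 0.26 without the second knock-in DMSO library (adjusted p = 0.0234). With those 6 libraries fitted alone the adjusted p was 0.0716. In parental cells the log2 difference was 0.02 (adjusted p = 0.983), and the difference between the lines in BYL719 effect was 0.35 (adjusted p = 0.164), or 0.24 without that DMSO library (adjusted p = 0.190). The antisense gene SLC7A11-AS1 averaged 0.673, 0.399, 0.230 and 0.131 CPM in knock-in BYL719, knock-in DMSO, parental BYL719 and parental DMSO cells. No label or header says whether counting used strand, so the 2 genes' reads cannot be fully told apart.

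SLC7A5 (LAT1), which exchanges glutamine for leucine and other large neutral amino acids, was lower in knock-in cells. It read 1382, 1345 and 1334 CPM in knock-in BYL719 libraries and 1712, 1406 and 1627 CPM in knock-in DMSO libraries. Parental libraries read 2198, 2084 and 2023 CPM with BYL719 and 2453, 2333 and 2439 CPM with DMSO. All 6 knock-in libraries were below all 6 parental ones. The log2 difference between knock-in and parental cells was -0.61 under BYL719 (SE 0.06, adjusted p = 1.18e-05) and -0.58 in DMSO (SE 0.06, adjusted p = 1.49e-05), or -0.52 in DMSO without the second knock-in library.

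With BYL719, SLC7A5 fell by 0.23 on the log2 scale in knock-in cells (SE 0.06, adjusted p = 0.0154), and by 0.31 without the second knock-in DMSO library. That call was lost in 3 of 18 alternatives, with an adjusted p of 0.106 when those 6 libraries were fitted alone, 0.0544 without the second and 0.0574 without the third knock-in BYL719 library. In parental cells the log2 difference was -0.20 (adjusted p = 0.161), or -0.21 without the second knock-in DMSO library (adjusted p = 0.00175). The difference between the lines in BYL719 effect was -0.03 (adjusted p = 0.903). The pseudogenes SLC7A5P1 and SLC7A5P2, near copies of SLC7A5, averaged 0.186 to 0.534 CPM over the groups.

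SLC7A8 (LAT2), a carrier of neutral amino acids of broader range, was low in all groups and moved with both factors. It read 6.52, 7.16 and 6.85 CPM in knock-in BYL719 libraries and 2.86, 1.81 and 2.31 CPM in knock-in DMSO libraries. It read 6.86, 6.65 and 6.50 CPM in parental BYL719 libraries and 4.57, 4.47 and 5.37 CPM in parental DMSO libraries. The knock-in DMSO libraries were the lowest, and the 2 BYL719 groups overlapped. BYL719 raised SLC7A8 2.93-fold in knock-in cells (log2 1.55, SE 0.13, adjusted p = 5.42e-06), and by 1.40 on the log2 scale without the second knock-in DMSO library.

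In parental cells the log2 difference for SLC7A8 was 0.47 (SE 0.13, adjusted p = 0.104), called in 4 of 18 alternatives, among them without the second knock-in DMSO library (adjusted p = 0.00320). The BYL719 effect was larger in knock-in than in parental cells by 1.08 (SE 0.18, adjusted p = 0.00810), or by 0.93 without that library. In DMSO, SLC7A8 was lower in knock-in than in parental cells by a log2 difference of -1.02 (adjusted p = 7.66e-05), or -0.88 without the second knock-in DMSO library. Under BYL719 the log2 difference was 0.06 (adjusted p = 0.790), but with counts corrected for effective transcript length it was 0.40 (adjusted p = 0.0495). Per length, SLC7A8 averaged 3.81 ± 0.111 TPM in knock-in BYL719 and 2.90 ± 0.107 TPM in parental BYL719 cells (SD, n = 3 each).

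The 2 lines differed in which SLC7A8 transcripts carried the pairs, a pattern chosen after its values were seen. Transcripts that begin at the distal start, led by SLC7A8-201 (chromosome 14, start 23183640, 4236 nt), took 47.3, 45.0 and 48.2% of the gene's pairs in knock-in BYL719 libraries and 45.3, 42.4 and 57.7% in knock-in DMSO libraries. They took 78.8, 79.3 and 82.7% in parental BYL719 libraries and 79.6, 80.0 and 79.2% in parental DMSO libraries. All 6 knock-in libraries lay below all 6 parental ones, with means of 47.6 ± 5.33% and 80.0 ± 1.43% (SD, n = 6 each). The difference of -32.3 percentage points had p = 0.00216 in a two-sided exact permutation test, the smallest that 6 against 6 allows. Without the second knock-in DMSO library it was -31.3 points (exact permutation p = 0.00433). Within each treatment the exact permutation test gave p = 0.1, the smallest that 3 against 3 allows.

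Internal-start transcripts of SLC7A8, led by SLC7A8-205 (start 23154401, 1752 nt), took 44.3 ± 11.6% of pairs in knock-in and 19.1 ± 1.46% in parental cells (SD, n = 6 each). Transcripts of other starts, led by the retained-intron SLC7A8-203 (2719 nt), took 25.0, 1.38 and 16.6% in knock-in BYL719 libraries and at most 2.12% in the other 9. Distal-start transcripts lay at 3.08 to 3.30 CPM in knock-in BYL719 libraries and 0.766 to 1.33 CPM in knock-in DMSO libraries, against 5.27 to 5.41 CPM in parental BYL719 and 3.58 to 4.26 CPM in parental DMSO libraries. The shares rest on 237 to 977 estimated pairs per library, and the assignment of pairs to transcripts is an estimate. The leading transcript's share was compared between the lines for each of the 10 members, and SLC7A8 was the only one with an adjusted exact permutation p below 0.05 over the 10 (0.0216). Transcript positions are those of GENCODE v29 (GRCh38), matched by identifier without version.

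**Figure D4:**
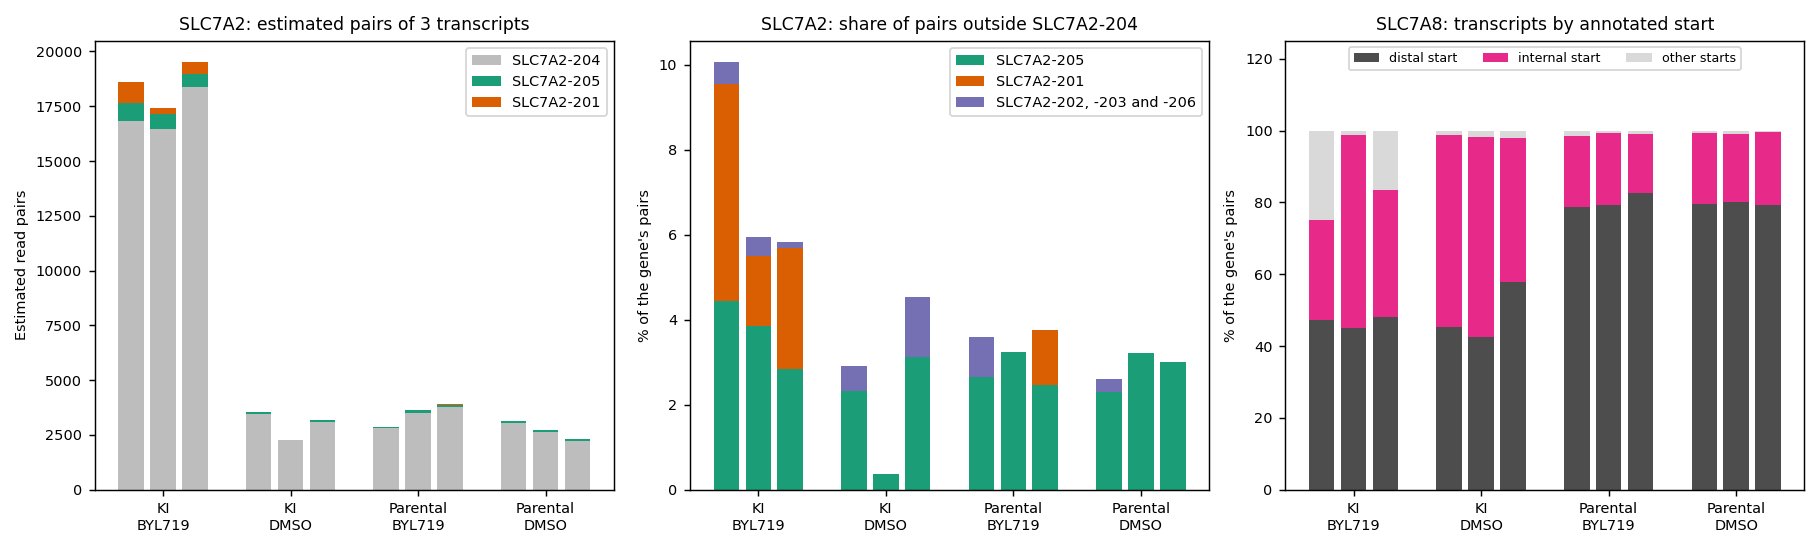
Left, estimated pairs of 3 SLC7A2 transcripts per library; middle, percentage of SLC7A2 pairs outside SLC7A2-204 by transcript; right, percentage of SLC7A8 pairs by the annotated start of the transcript (bars, 3 libraries per group). SLC7A2-201 is at 1.65 to 5.12% of the gene's pairs in knock-in BYL719 libraries and at 0 in all knock-in DMSO libraries, and distal-start SLC7A8 pairs are at most 57.7% in knock-in and at least 78.8% in parental libraries.

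SLC7A6 (y+LAT2) and SLC7A7 (y+LAT1), which exchange cationic for neutral amino acids, were not called in any comparison. SLC7A6 read 75.4, 74.5 and 78.3 CPM in knock-in BYL719 libraries and 90.8, 61.2 and 90.8 CPM in knock-in DMSO libraries. Parental libraries lay at 75.4 to 76.3 CPM with BYL719 and at 79.5 to 82.6 CPM with DMSO. Without the second knock-in DMSO library, which was the lowest, SLC7A6 was called in 4 comparisons, among them a fall of 0.26 on the log2 scale with BYL719 in knock-in cells (adjusted p = 7.37e-06). SLC7A7 lay at 0.190 to 0.338 CPM over all 12 libraries, which is 86.5 to 117 pairs summed per group. SLC7A6 overlaps SLC7A6OS on the opposite strand, at 18.5 to 22.7 CPM.

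SLC3A2, the heavy chain shared by these light chains, fell with BYL719 in knock-in cells. It read 360, 333 and 357 CPM in knock-in BYL719 libraries and 428, 507 and 424 CPM in knock-in DMSO libraries. Parental libraries read 460, 455 and 436 CPM with BYL719 and 498, 477 and 479 CPM with DMSO. The knock-in BYL719 libraries were below all others. The log2 change with BYL719 in knock-in cells was -0.38 (SE 0.07, adjusted p = 0.00197), and -0.29 without the second knock-in DMSO library. In parental cells it was -0.11 (adjusted p = 0.642), and the difference between the lines in BYL719 effect was -0.27 (adjusted p = 0.200).

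Under BYL719, SLC3A2 was lower in knock-in than in parental cells by a log2 difference of -0.34 (adjusted p = 0.00425). In DMSO the log2 difference was -0.07 (adjusted p = 0.504), and without the second knock-in DMSO library -0.17 (adjusted p = 0.00243). The 5 light chains summed to 1.65 ± 0.0526 times the SLC3A2 level in knock-in BYL719 cells and 1.46 ± 0.254 times in knock-in DMSO cells. The second knock-in DMSO library had a ratio of 1.17, and the other 2 of its group 1.64 and 1.57. The ratio was 1.83 ± 0.0409 in parental BYL719 and 1.95 ± 0.0404 in parental DMSO cells (SD of TPM ratios, n = 3 each). SLC7A5 made up 85.6, 89.7, 94.0 and 94.6% of the light chain sum in knock-in BYL719, knock-in DMSO, parental BYL719 and parental DMSO cells.

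SLC38A2 (SNAT2), a carrier induced by amino acid shortage, rose with BYL719 in both lines. It read 545, 518 and 547 CPM in knock-in BYL719 libraries and 311, 253 and 313 CPM in knock-in DMSO libraries. It read 635, 614 and 618 CPM in parental BYL719 libraries and 478, 478 and 473 CPM in parental DMSO libraries. The 4 groups did not overlap. The log2 change with BYL719 was 0.87 in knock-in cells (SE 0.06, adjusted p = 1.59e-06), or 0.78 without the second knock-in DMSO library. In parental cells it was 0.38 (SE 0.06, adjusted p = 0.0112), a call lost in 7 of 18 alternatives, among them without any 1 of the 6 parental libraries, with adjusted p up to 0.102.

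The BYL719 effect on SLC38A2 was larger in knock-in than in parental cells by 0.49 on the log2 scale (SE 0.09, adjusted p = 0.0125), or by 0.40 without the second knock-in DMSO library. It was not called with counts corrected for effective length (adjusted p = 0.0775). In DMSO, SLC38A2 was lower in knock-in than in parental cells by a log2 difference of -0.68 (adjusted p = 4.84e-06), or -0.60 without that library. Under BYL719 the log2 difference was -0.19 (adjusted p = 0.0514), which was called in 9 of 18 alternatives, among them without the second knock-in DMSO library (adjusted p = 6.07e-05).

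SLC1A5 (ASCT2), the sodium-coupled glutamine carrier, fell with BYL719 in knock-in cells. It read 179, 168 and 165 CPM in knock-in BYL719 libraries and 202, 212 and 212 CPM in knock-in DMSO libraries. Parental libraries lay at 194 to 210 CPM with BYL719 and at 210 to 221 CPM with DMSO. The 3 knock-in BYL719 libraries were the lowest of the 12. The log2 change with BYL719 in knock-in cells was -0.29 (SE 0.05, adjusted p = 0.000994), or -0.28 without the second knock-in DMSO library. In parental cells it was -0.08 (adjusted p = 0.633), and the difference between the lines in BYL719 effect was -0.21 (adjusted p = 0.140). Under BYL719, SLC1A5 was lower in knock-in than in parental cells by a log2 difference of -0.23 (adjusted p = 0.00534), which was not called with the effective-length correction (adjusted p = 0.0751).

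**Figure D5:**
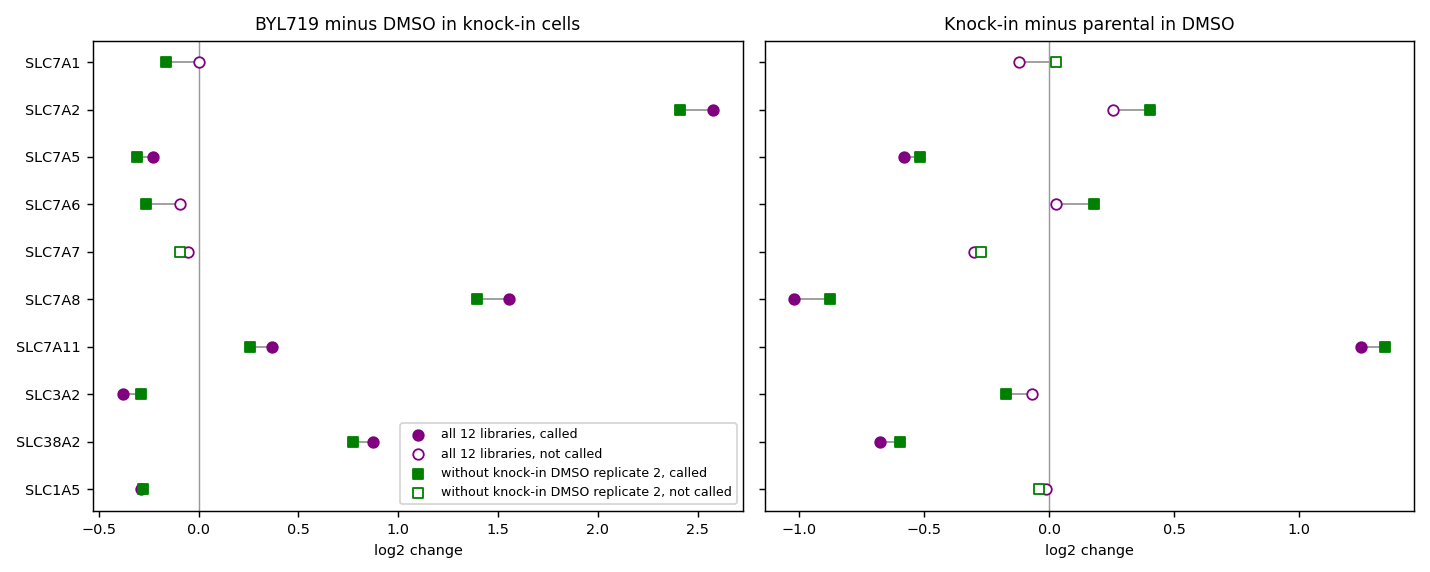
Log2 differences of the members for BYL719 against DMSO in knock-in cells (left) and knock-in against parental cells in DMSO (right), with all 12 libraries (circles) and without the second knock-in DMSO library (squares), filled where called. SLC7A2 is at 2.41 without that library on the left, beside 2.58 with all, and SLC7A2, SLC7A6 and SLC3A2 are called on the right only without that library.

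SLC7A2 (ENSG00000003989) is on chromosome 8 at 17494069 to 17570566 and had 6 transcripts. SLC7A2-204 (7622 nt, 13 exons, 17497088 to 17570573) took 94.1% of the gene's pairs over all libraries. A pair of exons of the gene are alternatives, of 140 nt (17554560 to 17554699) and of 137 nt (17554946 to 17555082), and every transcript held one of them. Transcripts with the 140 nt exon took at least 98.6% of pairs in each library. CAT2 is known in variants of low and high affinity that differ by an alternative exon, and the tables used here do not say which exon gives which variant.

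With BYL719 in knock-in cells, SLC7A2-204 rose by 2.48 on the log2 scale (adjusted p = 4.95e-06 over 93545 transcripts), and SLC7A2-205 rose by 3.40 (adjusted p = 0.0212). Of all transcripts, 3.56% were called in that comparison. Under BYL719, SLC7A2-204 was higher in knock-in than in parental cells by 2.30 (adjusted p = 2.68e-06) and SLC7A2-205 by 2.77 (adjusted p = 0.0487), beside 2.85% of all transcripts. The BYL719 effect on SLC7A2-204 was larger in knock-in cells by 2.04 (adjusted p = 0.00182), beside 0.0748% of all transcripts, and that on SLC7A2-205 was not called (adjusted p = 0.488). SLC7A2-204 and SLC7A2-205 rose by 2.37 and 2.89 with BYL719 in knock-in cells without the second knock-in DMSO library. The difference in BYL719 effect was then 1.93 for SLC7A2-204, and it was called for SLC7A2-205 (log2 2.46, adjusted p = 0.0341). SLC7A2-205 (2274 nt) had 829, 676 and 553 pairs in knock-in BYL719 libraries and 83.0, 8.48 and 100.2 pairs in knock-in DMSO libraries. SLC7A2-201, which begins at an internal start (17538777), had 958, 288 and 560 pairs in knock-in BYL719 libraries and 0 in all 3 knock-in DMSO libraries. These 0 values are estimated assignments, and SLC7A2-202, which begins at the same start, was assigned 45.9 pairs in the third knock-in DMSO library and 0 in the knock-in BYL719 libraries. No fold is given for SLC7A2-201. It was not called (adjusted p = 0.0912), and in the 6 parental libraries 1 held it, with 50.3 pairs.

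Between knock-in and parental cells in DMSO, edgeR called 0 of the 4 tested SLC7A2 transcripts, beside 4.88% of all transcripts. The edgeR p was below 0.05 before adjustment for 1 of them, SLC7A2-204 (adjusted p = 0.210). DESeq2 also called 0, and without the second knock-in DMSO library 1 was called. The share of SLC7A2-204 averaged 95.1 ± 3.26% in knock-in and 96.8 ± 0.412% in parental libraries (SD, n = 6 each). The difference of -1.71 percentage points had p = 0.255 in a two-sided exact permutation test. Under BYL719 the difference was -3.75 points, and p = 0.1 in the exact test is the smallest that 3 against 3 allows. In DMSO it was 0.33 points (exact permutation p = 0.8). Without the second knock-in DMSO library, whose share was 99.6%, the overall difference was -2.62 points (exact permutation p = 0.0260). Leaving out a DMSO library gives the BYL719 libraries more weight in the knock-in mean, so that p does not compare the lines alone.

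The 5 tested genes whose log2(CPM + 1) followed SLC7A2 most closely over the 12 libraries were RERG, CHRM3, SYT14, BCL2L13 and ADAMTS5, with Pearson r of 0.995, 0.991, 0.990, 0.989 and 0.987. The libraries of a group share cells and treatment, so these values describe a shared pattern of 4 groups. SYT14 averaged 3.48 ± 0.451 CPM in knock-in BYL719, 0.623 ± 0.187 CPM in knock-in DMSO, 0.969 ± 0.0781 CPM in parental BYL719 and 0.541 ± 0.0375 CPM in parental DMSO cells (SD, n = 3 each). RERG averaged at most 0.705 CPM and CHRM3 at most 2.45 CPM in any group. ADAMTS5 averaged 0.249 CPM in knock-in BYL719 cells and at most 0.0200 CPM in the other groups, near the floor. Its correlation therefore rests on the group where it is high.

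The gene lists that follow were chosen with earlier results of these data known, so their counts beside all genes are descriptive. Of 26 other amino acid carriers of the plasma membrane, 15 passed the filter. With BYL719 in knock-in cells 10 of them rose and 0 fell, beside 28.3% of all genes called, with a median log2 change of 0.27 (all genes 0.02). SLC6A9, the glycine transporter GlyT1, averaged 16.9 CPM in knock-in BYL719 and 8.44 CPM in knock-in DMSO cells (log2 1.00, SE 0.09, adjusted p = 1.06e-05). SLC43A1 and SLC43A2, sodium-independent carriers of large neutral amino acids, rose by 0.83 and 0.54. SLC38A4, a relative of SLC38A2, averaged 0.601 ± 0.175 CPM in knock-in BYL719 and 0.0379 ± 0.0208 CPM in knock-in DMSO cells (log2 3.96). The counts were 8 and 1 without the second knock-in DMSO library, beside 32.4% of all genes called. With the effective-length correction 5 rose and 1 fell, beside 21.7% of all genes.

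In parental cells edgeR called 0 of these 15 carriers with BYL719, beside 1.43% of all genes, with 2 at an unadjusted p below 0.05. DESeq2 called 2, both up, and 893 over all genes. By edgeR 4 were called, all up, without the second knock-in DMSO library, beside 9.17% of all genes. The BYL719 effect was larger in knock-in cells for 4 carriers: SLC38A4, SLC43A1, SLC43A2 and SLC6A9, with adjusted p of 0.00144 to 0.0279, beside 2.08% of all genes in that direction. DESeq2 called 3 carriers in that direction, and edgeR with the effective-length correction called 2. Over all genes these fits gave 1432 and 272 calls in either direction. Without the second knock-in DMSO library edgeR called 4, beside 8.71% of all genes called. In DMSO, 6 of 15 were lower in knock-in than in parental cells, led by SLC43A1 (log2 -1.09) and SLC6A9 (log2 -1.08), and 0 were higher. That count is near the 34.2% of all genes called. Without the second knock-in DMSO library 6 were lower and 2 higher, beside 38.9% of all genes.

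Of the arginine and polyamine genes, 15 of 18 were tested, and 9 were higher and 2 lower in knock-in than in parental cells in DMSO (median 0.23, all genes 0.00), beside 34.2% of all genes called. The counts were the same without the second knock-in DMSO library, beside 38.9% of all genes. SAT1, which acetylates polyamines for export or breakdown, averaged 118 ± 20.5 CPM in knock-in DMSO and 69.0 ± 2.02 CPM in parental DMSO cells (log2 0.80, adjusted p = 5.62e-05). ARG2, the mitochondrial arginase, was lower by 0.29 and OAT, which acts on ornithine, by 0.28. With BYL719 in knock-in cells 1 rose and 4 fell, near the 28.3% of all genes called. Without that library 2 rose and 4 fell, beside 32.4% of all genes. AMD1, which makes the aminopropyl donor of polyamine synthesis, averaged 93.0 ± 5.25 CPM in knock-in BYL719 and 147 ± 5.22 CPM in knock-in DMSO cells (log2 -0.67, adjusted p = 1.20e-06). ODC1, the first enzyme of polyamine synthesis, fell by 0.51, and ARG2 rose by 0.43. AMD1 fell by 0.26 in parental cells (adjusted p = 0.0169), and its BYL719 effect differed between the lines by -0.41 (adjusted p = 0.00582).

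Of 11 glutathione genes, 7 were higher and 0 lower in knock-in than in parental cells in DMSO (median 0.42, all genes 0.00), beside 34.2% of all genes called. Under BYL719 the counts were the same, beside 22.3% of all genes, with a median of 0.18 (all genes 0.01). DESeq2 gave the same counts in both. With the effective-length correction 7 were higher and 0 lower in DMSO, and 5 were higher and 0 lower under BYL719, beside 16.9% of all genes. With the second knock-in DMSO library left out, 7 were higher and 1 lower in DMSO, and 8 were higher and 1 lower under BYL719, beside 38.9 and 34.6% of all genes. GCLC, the catalytic subunit of the rate-limiting ligase, averaged 242 ± 6.81 CPM in knock-in BYL719, 156 ± 8.42 CPM in knock-in DMSO, 131 ± 0.431 CPM in parental BYL719 and 109 ± 3.61 CPM in parental DMSO cells. GCLM, its modifier subunit, was higher in knock-in cells in DMSO by 0.42 and fell with BYL719 in knock-in cells by 0.30. GSR, which regenerates reduced glutathione, was higher by 0.56 in DMSO.

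Of 17 genes of amino acid sensing and the ATF4 response, 8 were higher and 3 lower in knock-in than in parental cells in DMSO (median 0.17, all genes 0.00), beside 34.2% of all genes called. The counts were 7 and 3 without the second knock-in DMSO library, beside 38.9% of all genes. VLDLR, a lipoprotein receptor and ATF4 target, was higher by 0.80 and ATF3, a stress-induced factor, by 0.93. ATF5, a factor induced by amino acid shortage, averaged 64.8 ± 4.23 CPM in knock-in DMSO and 50.4 ± 0.112 CPM in parental DMSO cells, and CEBPG, a partner of ATF4, was lower by 0.35. With BYL719 in knock-in cells 3 rose and 4 fell, beside 28.3% of all genes called. Without that library 3 rose and 5 fell, beside 32.4% of all genes. CASTOR2, a relative of the arginine sensor CASTOR1, averaged 6.69 ± 0.455 CPM in knock-in BYL719 and 2.38 ± 0.806 CPM in knock-in DMSO cells (log2 1.49, adjusted p = 6.17e-05). SLC38A9, the lysosomal arginine sensor, rose by 0.47, and its BYL719 effect was larger in knock-in cells by 0.45 (adjusted p = 0.0211). In parental cells edgeR called 0 of the 17, beside 1.43% of all genes, with 3 at an unadjusted p below 0.05. DESeq2 called 1 up and 1 down, and 893 over all genes.

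Of 8 genes of glutamine use, 2 rose and 3 fell with BYL719 in knock-in cells, beside 28.3% of all genes called. Leaving out the second knock-in DMSO library, 2 rose and 4 fell, beside 32.4% of all genes. GLUL, glutamine synthetase, averaged 913 ± 89.3 CPM in knock-in BYL719, 186 ± 14.2 CPM in knock-in DMSO, 1083 ± 13.3 CPM in parental BYL719 and 608 ± 15.8 CPM in parental DMSO cells (SD, n = 3 each). Its BYL719 effect was larger in knock-in cells by 1.46 on the log2 scale (adjusted p = 2.21e-05). PSAT1, which draws on glutamate to make serine, fell by 0.27 with BYL719 in knock-in cells.

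For each of these 5 gene lists, up to 4 called genes of lowest adjusted p were taken in each comparison that uses knock-in DMSO cells, which gave 50 calls. All 50 were also called without the second knock-in DMSO library, in the same direction. They were picked for low adjusted p in the fit of all 12 libraries. More of all genes were called without that library in these comparisons, so this is no independent test of the 50.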

How the data were processed

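RNA of MCF10A cells was sequenced as paired 150 nt reads, per the labels' protocols. The submitters' processing notes name Trim Galore 0.6.1, cutadapt, Salmon 1.2.1 and DESeq2 1.28.1 and the build GRCh38, with no settings. The deposited tables hold, per the file headers, an estimated count (NumReads) and TPM for each of 207749 transcripts, which Salmon made from the reads. TPM is scaled to 1000000 per library and by effective length. The sources used here do not say whether reads were counted by strand.

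Estimated counts were summed by gene identifier over the 12 MCF10A libraries and rounded to whole numbers. CPM is the gene's share of the library total. Where a listed symbol had several identifiers, the one with most pairs was used. Genes were filtered with filterByExpr, scaled by TMM and tested with edgeR 4.0.16 (quasi-likelihood, robust; R 4.3.3) in a fit of 4 group means with 8 residual degrees of freedom, adjusted by Benjamini-Hochberg over 21079 genes. Transcripts were fitted likewise over 93545. Shares were compared with exact permutation tests (SciPy 1.17.1), two-sided. The model fits were tested on simulated counts with the same spread for all genes and no library that stood apart. That test does not cover a library such as the second knock-in DMSO library.

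The members and the gene lists were chosen with earlier results of these data known. From each list, at most 4 called genes of lowest adjusted p were named, and for SLC7A2 the 5 genes of highest correlation. The SLC7A8 start shares were chosen after their values were seen. Replicate numbers were not taken as pairs. Alternatives were DESeq2 1.42.0, scaling by total count, no filter, only the libraries compared, a replicate block, an effective-length offset and leaving out each library. The 12 libraries of mouse fibroblasts were not analysed here.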

Additional observations from a re-analysis of the deposited data

Results flagged for a closer look

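A total of 3 members differed between the lines in their BYL719 effect, by the test of that difference itself in edgeR. For SLC7A2 the effect in knock-in cells exceeded that in parental cells by 2.12 on the log2 scale (SE 0.16, adjusted p = 3.95e-05), and it lay between 1.96 and 2.20 over 17 alternatives. For SLC7A8 the difference was 1.08 (SE 0.18, adjusted p = 0.00810), between 0.93 and 1.23 over the alternatives. For SLC38A2 it was 0.49 (SE 0.09, adjusted p = 0.0125), between 0.40 and 0.52, with 1 call lost, under the effective-length offset. Without knock-in DMSO replicate 2 the 3 differences were 1.96, 0.93 and 0.40, and each was still called.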

How the results depend on the processing

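The calls in parental cells depended most on the settings. With BYL719 against DMSO in parental cells 1 member was called, against 4 by DESeq2, 6 with only the libraries compared and 0 with the effective-length offset; leaving out 1 library gave 0 to 5. Over all genes that comparison gave 302 calls, against 893, 3484 and 134 under the same settings and 73 to 1973 without 1 library. The difference in BYL719 effect gave 606 calls over all genes, 1432 by DESeq2, 272 with the offset and 239 to 1874 without 1 library. BYL719 in knock-in cells gave 5964 calls, and 2610 with only the libraries compared. Knock-in against parental cells under BYL719 gave 4709 calls, and 7442 without knock-in DMSO replicate 2. Members called between the lines in DMSO were 4, and 4 to 7 without 1 library, the 7 without knock-in DMSO replicate 2. Over all genes that comparison gave 7213 calls, and 5759 to 8382 without 1 library. SLC7A2 transcripts called there were 0 to 1. The difference in SLC7A2-204 share was -2.62 to -0.685 points without 1 library and -1.44 as a share of TPM. With BYL719 in knock-in cells, SLC7A1 was at 0.00289 (SE 0.107) with all 12 libraries. The SLC7A6 difference in BYL719 effect was at 0.00638 (SE 0.150). Both were smaller than their SE. Without knock-in DMSO replicate 2 they were at -0.164 and -0.158, both called. Without another library they were at up to 0.0581 and 0.0687, and the cause was not tested. The distal-start share of SLC7A8 differed by -34.3 to -31.3 points without 1 library and by -31.0 points in TPM, alternatives chosen after seeing the data.

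With the replicate block, members called stayed at 4 between the lines in DMSO, beside 7104 of all genes. With BYL719 they stayed at 7 in knock-in cells (5818 of all genes) and at 1 in parental cells (211). For the difference in BYL719 effect they stayed at 3 (443). Between the lines under BYL719 they came to 6 (4510), where SLC38A2 was added (adjusted p = 0.0368). In exact sign-flip permutation tests the block gave p = 0.25 for the SLC7A2-204 share and p = 0.0312 for the SLC7A8 distal share, the smallest that 6 pairs allow. Deviations of same-numbered libraries from their group means correlated at -0.072 to 0.080 (median 0.029). Those of differently numbered libraries correlated at -0.077 to 0.075 (median -0.018). Of 12 libraries, 8 correlated best with their own number. Low counts limit SLC7A7 and the shares of SLC7A8 transcripts.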
